A study of Mus musculus with 18 samples.

Results

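The 7 mRNA rows of the mouse mitochondrial genome that encode subunits of respiratory complexes I and III were examined in prostate RNA of mice with changed Elac2. They were taken by name as mt-Nd1, mt-Nd2, mt-Nd3, mt-Nd4l_4, mt-Nd5, mt-Nd6 and mt-Cytb, 7 of 55469 rows in each deposited table and 7 of the 11 mitochondrial mRNA rows. mt-Nd4l_4 is a joined row for the overlapping mt-Nd4l and mt-Nd4. All 7 passed the filter on low counts in every comparison. Prostates came from male C56NL/6N mice aged 10 or 30 weeks, 3 per group, matched for age and litter, and RNA was taken from the ventral and lateral lobes. WT mice carried ELAC2+/+. KO mice are labelled ELAC2-/- and lost exon 8 through Pb-Cre, which the probasin promoter drives, so only cells that express Cre lose Elac2 and the other cells of the lobe keep it. A537T mice carried the Ala537Thr substitution of ELAC2 in every cell of the body. The mice were not on the TRAMP background. Libraries carry the names of the table columns. At 10 weeks WT holds 10AF, 11AF and 12AF, KO holds 13AF, 14AF and 15AF, and A537T holds 16AF, 17AF and 18AF. At 30 weeks WT holds 1AF, 2AF and 3AF, KO holds 4AF, 5AF and 6AF, and A537T holds 7AF, 8AF and 9AF.

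Complex I (NADH:ubiquinone oxidoreductase) and complex III (the cytochrome bc1 complex) pass electrons from NADH through ubiquinone to cytochrome c and pump protons. All ND subunits sit in the membrane arm of complex I, and cytochrome b is the mitochondrially encoded core of complex III, while the other subunits of both come from nuclear genes. Mitochondrial DNA is transcribed from both strands into long precursors in which tRNAs lie between most mRNAs. RNase P cuts at the 5′ end of each tRNA and ELAC2, the tRNA 3′ endonuclease, at its 3′ end. The cut of ELAC2 therefore frees the 5′ end of an mRNA that follows a tRNA, and the cut of RNase P the 3′ end of an mRNA that precedes one.

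In the GRCm38 annotation of the mitochondrial chromosome (M), 4 members have a tRNA on both sides within 10 bases on the same strand. These are mt-Nd1 (2751 to 3707, between mt-Tl1 and mt-Ti), mt-Nd2 (3914 to 4951, between mt-Tm and mt-Tw), mt-Nd3 (9459 to 9806, between mt-Tg and mt-Tr) and mt-Nd4l_4 (9877 to 11544, between mt-Tr and mt-Th). mt-Nd5 (11742 to 13565) has a tRNA, mt-Tl2, on its 5′ side only. mt-Cytb (14145 to 15288) has 1 on its 3′ side only, mt-Tt, and the gene beside its 5′ end, mt-Te, lies on the other strand. mt-Nd6 (13552 to 14070) is the only member on the light strand transcript, has mt-Te on its 5′ side only, and overlaps mt-Nd5 by 14 bases on the opposite strand. No member lacks a flanking tRNA, so mt-Co1 was the only mitochondrial mRNA row with none, and the classes were compared by position. The counting used the strand of the reads. The counts are per gene, so a processed mRNA and a precursor that still carries its tRNA are counted alike. The reads on 22 tRNA rows reached 2 at most in any library, so tRNA levels could not be measured.

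The junctions at which the 3′ end of a tRNA meets the 5′ end of a member are shown because they hold the bond that ELAC2 cuts. The last 15 bases of the tRNA are in lower case and the first 15 bases of the mRNA, starting with its initiation codon, are in capitals, 5′ to 3′ on the strand of the transcript (GRCm38, GENCODE transcripts).
mt-Tl1 and mt-Nd1, chrM:2736-2765, plus strand: atcctctccctaataGTGTTCTTTATTAAT
mt-Tm and mt-Nd2, chrM:3899-3928, plus strand: atccttcccgtactaATAAATCCTATCACC
mt-Tg and mt-Nd3, chrM:9444-9473, plus strand: acccagaagagagtaATTAACCTGTACACT
mt-Tl2 and mt-Nd5, chrM:11727-11756, plus strand: atccaaataaaagtaATCAATATTTTCACA
mt-Te and mt-Nd6, chrM:14056-14085, minus strand: tgctgtgtagaaataATGAATAATTATATT
In these 5 junctions no base separates the tRNA from the mRNA, so the initiation codon of the mRNA follows the tRNA directly. mt-Nd4l_4 is set off from mt-Tr by 1 base.

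Libraries held 6569642 to 11225281 reads, with a median of 8586877. Elac2 had 111 to 119 normalized counts in young KO against 124 to 166 in young WT, and 98.4 to 151 in older KO against 149.6 to 194 in older WT (log2 fold change -0.31 and -0.43, adjusted p = 0.325 and 0.478, limma). A gene count does not show the loss of 1 exon, so it does not check the KO labels. The labelled tissue was present in every library, since 12 prostate luminal genes summed to 0.556 to 14.98% of counts, lowest in KO library 15AF at 10 weeks. RNA of other tissues differed between libraries. At 10 weeks 33 skeletal muscle genes summed to 4.10, 6.83 and 13.2% of counts in WT, 0.0696, 2.14 and 0.0642% in KO and 4.53, 3.36 and 1.63% in A537T, against 0.0130 to 0.0786% in every library at 30 weeks. The 9 seminal vesicle genes made up 4.64, 1.77 and 0.000808% of counts in the young WT libraries, 9.47, 6.56 and 10.3% in the young KO libraries and at most 0.191% in young A537T. Among the older mice they made up 8.53% in 4AF, 0.0000713% in 5AF, 6.32% in 6AF, 7.24% in 7AF, 0.0000799% in 8AF and 9.17% in 9AF, with at most 0.000353% in any WT library. Over the tested genes of the remaining lists the medians of the log2 fold change were 0.85, 0.91, 0.28 and 0.22 for smooth muscle, -0.89, 0.39, 1.62 and 1.24 for adipocytes, -0.19, 0.01, -0.58 and -0.73 for prostate lumen, and -0.19, 0.28, 0.02 and 2.29 for plasma and B cells, each in the order KO and A537T at 10 weeks and KO and A537T at 30 weeks. For prostate lumen the median weighs all 12 genes alike and does not show their share of counts. That share was 3.93, 2.66 and 0.556% in KO against 3.76, 12.7 and 13.4% in WT at 10 weeks, with overlap. There 8 of the 12 genes were negative and 4 positive. Of the skeletal muscle genes, Pvalb and Tnnc1 were at 0 in every WT library at 30 weeks and Csrp3 in every A537T library at 30 weeks. In whole tissue, fewer cells of a type and less RNA per cell cannot be told apart.

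The members made up 0.767 to 0.921% of all counts in WT at 10 weeks and 0.539 to 0.577% in WT at 30 weeks. As normalized counts per kb, so that genes can be compared, the highest mean level in WT at 10 weeks was that of mt-Nd3, the smallest member, at 21302 ± 12116 (SD, n = 3), followed by mt-Nd1 at 17961 ± 3778 and mt-Cytb at 15616 ± 1101. The rank of mt-Nd3 rested on 12AF, with 34759.5 per kb. In 10AF mt-Nd3 stood at 11261 per kb, below mt-Nd1 at 14675 and mt-Cytb at 14712. mt-Nd4l_4, mt-Nd2 and mt-Nd5 followed at 8979 ± 1686, 6153 ± 1159 and 5356 ± 1203 per kb, and mt-Nd6 was lowest at 2836 ± 275. In the other 5 groups mt-Cytb had the highest mean per kb, from 10353 in A537T at 30 weeks to 14693 in A537T at 10 weeks. mt-Nd3 there took rank 2, 3 or 4, with 8263 ± 2202 normalized counts per kb in KO and 9943 ± 379 in A537T at 10 weeks. mt-Nd6 had the lowest mean per kb in all 6 groups, although in KO library 5AF at 30 weeks mt-Nd2 was lower, at 1918 against 1950 per kb.

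Levels across the 6 groups were set as RPM (recovered reads with every library scaled to the same total), since the tables were normalized separately. mt-Nd3 was highest in WT at 10 weeks (796 ± 344 RPM, n = 3), and its 3 libraries there did not overlap the next group, A537T at 10 weeks (410 ± 42.5). KO at 10 weeks (371 ± 81.7) and KO at 30 weeks (361 ± 16.7) overlapped, and the latter lay above A537T (276 ± 47.0) and WT (244 ± 52.4) at 30 weeks, which overlapped each other. For mt-Nd1 the order was WT (1905 ± 145), A537T (1468 ± 142) and KO (1389 ± 191) at 10 weeks, then WT (938 ± 14.99), KO (922 ± 165) and A537T (887 ± 97.6) at 30 weeks. Only the steps from WT to A537T at 10 weeks and from KO at 10 weeks to WT at 30 weeks were without overlap. mt-Nd2 went from 880 ± 145 RPM in KO at 10 weeks to 338 ± 27.5 in A537T at 30 weeks, with a gap only between WT at 10 weeks (731 ± 223) and WT at 30 weeks (396 ± 61.7). mt-Cytb went from 2005 ± 127 in WT at 10 weeks to 1307 ± 200 RPM in KO at 30 weeks, with a gap only between WT (1514 ± 9.63) and A537T (1340 ± 92.5) at 30 weeks. mt-Nd4l_4 (2133 ± 345 to 1090 ± 96.7), mt-Nd5 (1420 ± 244 to 744 ± 55.6) and mt-Nd6 (165 ± 7.20 to 129 ± 24.2) overlapped between all neighbours in their order. The order of groups for mt-Nd4l_4 and mt-Nd5 was A537T, KO and WT at 10 weeks and then WT, KO and A537T at 30 weeks.

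**Figure D1:**
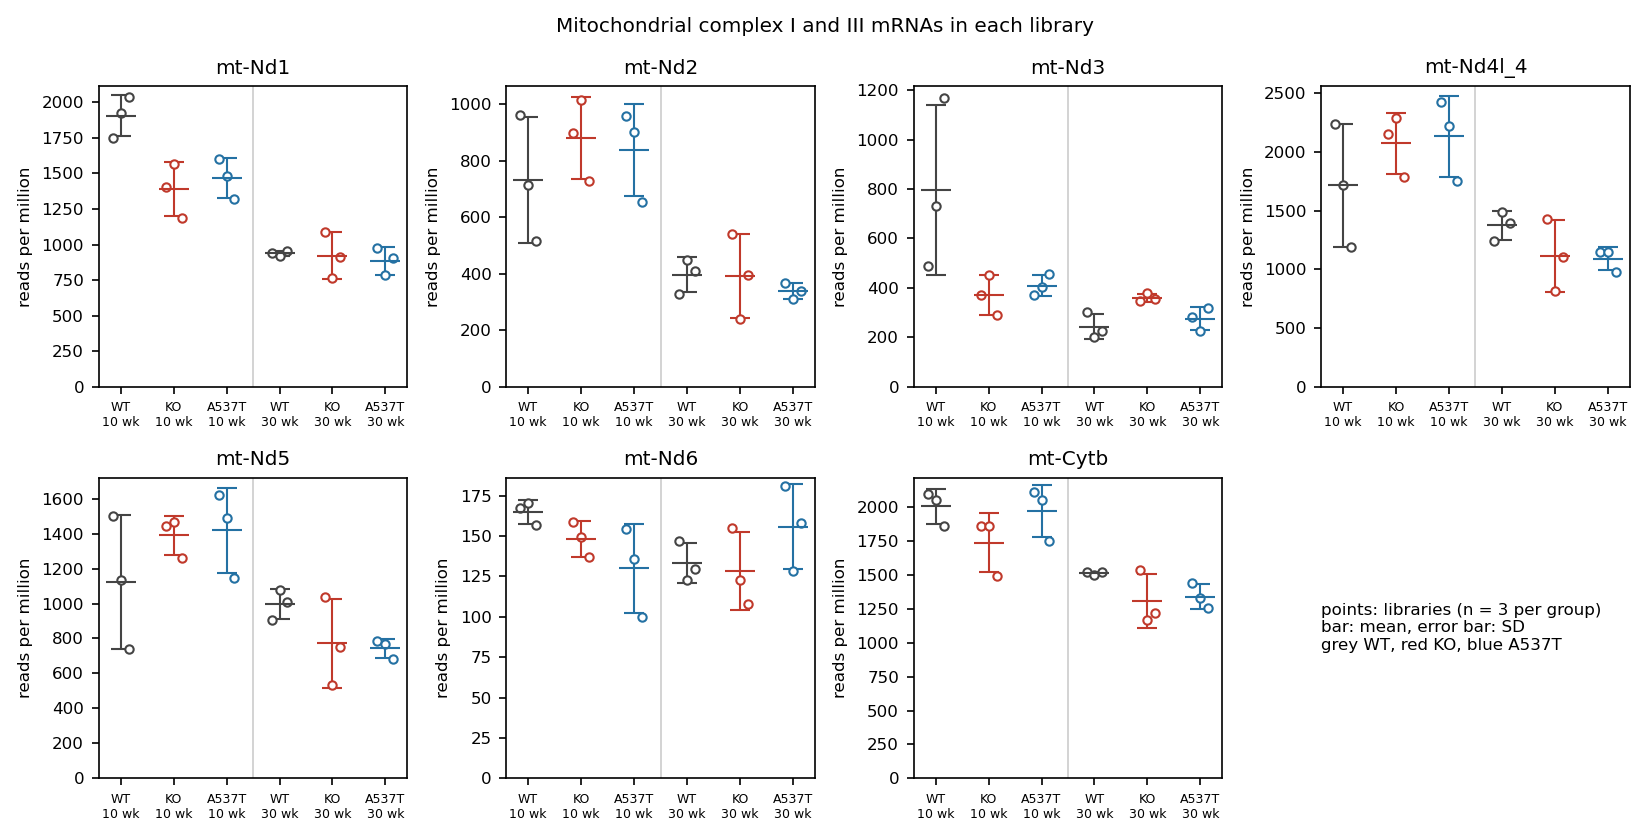
Levels in RPM (linear axis from 0) of each of the 7 members in the 18 libraries, by genotype and age, with points for libraries, a bar for the mean and an error bar for the SD (n = 3 per group). mt-Nd3 lies between 489 and 1168 in WT at 10 weeks and at or below 455 in every other group, while mt-Nd6 stays between 99.9 and 181 throughout.

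Each mutant line was then compared with WT of its age, to ask how the members change when ELAC2 is lost or altered. The WT libraries of an age serve both lines. Values are normalized counts within a table, and limma was fitted on log2(normalized count + 1) over all genes, with Benjamini-Hochberg adjustment and a threshold of adjusted p = 0.05. No member passed it in any of the 4 comparisons, and neither did any other gene.

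In KO prostates at 10 weeks 0 of 15089 genes passed the limma test (0%), with 2930 at an unadjusted p under 0.05, and edgeR called 0 and DESeq2 714 genes on reads recovered from the same tables. mt-Nd3, a small subunit at the junction of the 2 arms of complex I, had 3919, 6224 and 12096 normalized counts in WT and 2749, 3697 and 2180.01 in KO. All KO libraries lay below all WT libraries, and the spread among WT was wider than the step to KO. The log2 fold change of mt-Nd3 was -1.24 (SE 0.41, adjusted p = 0.197, limma). mt-Nd1, which helps to form the ubiquinone site of complex I, had 14044, 16383 and 21138 in WT and 10469, 12786 and 8929 in KO (-0.67, SE 0.23, adjusted p = 0.206, limma). mt-Nd6, a further membrane-arm subunit, had 1339, 1453 and 1623 in WT and 1179.7, 1217 and 1027 in KO (-0.37, SE 0.13, adjusted p = 0.212, limma). Their groups did not overlap either. mt-Cytb had 16830.05, 17497 and 19268 in WT and 13835, 15189 and 11195 in KO (-0.42, SE 0.20, adjusted p = 0.284, limma), again without overlap. mt-Nd2, mt-Nd4l_4 and mt-Nd5, which form proton-pumping parts of the membrane arm, overlapped between the groups, with log2 fold changes of 0.09 (SE 0.22), 0.10 (SE 0.23) and 0.15 (SE 0.22). In these 3, WT library 12AF was the lowest of the 6, whereas it was the highest of the 6 in mt-Nd1, mt-Nd3, mt-Nd6 and mt-Cytb. As RPM it was still highest in mt-Nd1 and mt-Nd3 but the lowest WT library in mt-Nd6 (157 against 167 and 171) and mt-Cytb (1861 against 2100.0 and 2053).

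Thus 4 of 7 members were lower in every KO library than in every WT library at 10 weeks, and none was higher, against 14.3% of all genes lower and 11.7% higher in this way. These 4 were lower without overlap with any 1 library left out as well, where 16.1 to 29.2% of all genes were. With every library scaled to the same total it was 2 (mt-Nd1 and mt-Nd3), against 8.94% of genes lower and 18.6% higher. In mt-Nd6 and mt-Cytb only WT library 12AF reached into the KO range (157 RPM against 159 in 13AF, and 1861 against 1864 in 14AF). Scaling to the same total also moved the median log2 fold change of all genes from -0.01 to 0.20. Under it mt-Nd1 stood at -0.46, mt-Nd3 at -1.03, mt-Nd6 at -0.15 and mt-Cytb at -0.21, where the median gene stood at 0.20. DESeq2 on recovered reads called mt-Nd3 (-1.35, adjusted p = 0.0215, over alternatives 0.0215 to 0.9996). Without 10AF, the WT library with the least skeletal muscle counts (4.10%), limma called 2886 of 15044 genes. Among them were mt-Nd3 (-1.63, adjusted p = 0.0284) and mt-Nd1 (-0.81, adjusted p = 0.0461). With KO library 14AF left out limma called 185 of 15082 genes. Without WT library 12AF the log2 fold change of mt-Nd3 was -0.81. The skeletal muscle share of counts moved with these values. The WT libraries stood in the same order in it as in mt-Nd3 and mt-Nd1, and in the opposite order in mt-Nd2, mt-Nd4l_4 and mt-Nd5, both in normalized counts and as RPM. For mt-Cytb the order turned with the scale, being the same in normalized counts and opposite as RPM, and for mt-Nd6 it was the same in normalized counts only. Among the KO libraries 14AF had the most muscle counts and the highest level of all 7 members in normalized counts, but as RPM mt-Nd6 was higher in 13AF (159 against 149) and mt-Cytb was nearly level (1860.3 and 1864). With a skeletal muscle score as covariate the log2 fold changes were -0.34 for mt-Nd3 (SE 0.60) and -0.17 for mt-Nd1 (SE 0.35). The part of muscle RNA, or of the seminal vesicle RNA that was highest in KO, in the difference was not tested further.

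In A537T prostates at 10 weeks 0 of 15131 genes passed (0%), with 973 at an unadjusted p under 0.05, and edgeR called 0 and DESeq2 90 genes. mt-Nd3 had 4153, 6475 and 12633 normalized counts in WT and 3315, 3492 and 3573 in A537T (-1.01, SE 0.37, adjusted p = 0.746, limma). The 3 A537T libraries lay close together and below all WT libraries. mt-Nd6 had 1443, 1537 and 1723.5 in WT and 1378, 1176 and 784 in A537T (-0.53, SE 0.22, adjusted p = 0.746, limma), and mt-Nd1 15005, 17182 and 22258 in WT and 14314, 12841 and 10352 in A537T (-0.53, SE 0.24, adjusted p = 0.746, limma). Both were without overlap. The other 4 members overlapped, with log2 fold changes of 0.04 (SE 0.25) for mt-Nd2, 0.17 (SE 0.26) for mt-Nd4l_4, 0.23 (SE 0.27) for mt-Nd5 and -0.17 (SE 0.22) for mt-Cytb. Lower without overlap were thus 3 of 7 members, against 6.34% of all genes, and 0 were higher, against 5.58%. Scaling to the same total left the same 3 members lower, while the median of all genes moved from 0.01 to 0.15. With 16AF left out there were 4 members lower, mt-Cytb added, against 12.2% of all genes. With 18AF left out mt-Nd5 was higher without overlap, against 9.81% of all genes. The muscle share was lower in each A537T library than in 11AF and 12AF, and with a muscle score as covariate mt-Nd3 stood at -0.40 (SE 0.41), mt-Nd1 at -0.11 (SE 0.20) and mt-Nd6 at -0.08 (SE 0.20). Without 12AF mt-Nd3 stood at -0.58, and without 10AF limma called 50 genes, none a member.

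At 30 weeks the muscle share was at most 0.0786% in every library, and mt-Nd3 was higher in KO than in WT while the other 6 members overlapped. Of 14729 genes 0 passed the limma test (0%), with 1616 at an unadjusted p under 0.05, and edgeR called 0 and DESeq2 280 genes. mt-Nd3 had 2689.8, 1903 and 1983 normalized counts in WT and 3318, 3130.3 and 3347 in KO. All KO libraries were above all WT libraries and within a narrow range (log2 fold change 0.59, SE 0.15, adjusted p = 0.386, limma). DESeq2 called mt-Nd3 (0.58, adjusted p = 0.0346, over alternatives 0.0346 to 0.872). It was the only member of 7 without overlap, higher, against 7.92% of all genes higher and 8.41% lower in this way. mt-Nd5 had 8041, 10096 and 8888 in WT and 9877, 4380.001 and 7109 in KO (-0.41, SE 0.28, adjusted p = 0.607, limma), so that the KO libraries lay on both sides of WT. Library 5AF was the lowest of the 6 in every member but mt-Nd3, and it was also the KO library with almost no seminal vesicle counts (0.0000713%) and the most prostate luminal counts (14.35%). mt-Nd4l_4, mt-Cytb, mt-Nd2, mt-Nd6 and mt-Nd1 stood at -0.33 (SE 0.25), -0.22 (SE 0.17), -0.07 (SE 0.34), -0.06 (SE 0.17) and -0.03 (SE 0.19) on the log2 scale. Without 4AF 4 members were lower without overlap (mt-Nd4l_4, mt-Nd5, mt-Nd6 and mt-Cytb), against 11.7% of all genes. Without 5AF mt-Nd1 was higher without overlap beside mt-Nd3, against 21.6% of all genes, and limma called 944 genes, none a member. mt-Nd3 stayed higher without overlap with any 1 library left out, where 10.4 to 21.6% of all genes were. It lay between 0.50 and 0.75 on the log2 scale under all alternatives.

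In A537T prostates at 30 weeks 0 of 14789 genes passed (0%), with 2016 at an unadjusted p under 0.05, and edgeR called 0 and DESeq2 478 genes. mt-Nd5, a large proton-pumping subunit at the far end of the membrane arm, had 8009.9, 10046 and 8876 normalized counts in WT and 6878, 6486 and 6351 in A537T. The A537T libraries were all below WT and close together (log2 fold change -0.44, SE 0.12, adjusted p = 0.272, limma), and DESeq2 called the gene (-0.44, adjusted p = 0.0231, over alternatives 0.0231 to 0.695). mt-Nd4l_4 had 10925, 13751 and 12177 in WT and 10039, 9687 and 9126 in A537T (-0.35, SE 0.12, adjusted p = 0.315, limma). mt-Cytb had 13349.9, 13912 and 13299 in WT and 12611, 11222 and 11698 in A537T (-0.19, SE 0.11, adjusted p = 0.449, limma). These were the 3 of 7 members lower without overlap, against 9.4% of all genes, and 0 were higher, against 9.18%. mt-Nd6 had 1294, 1141 and 1135 in WT and 1587, 1086 and 1474 in A537T (0.20, SE 0.16, adjusted p = 0.579, limma), with 8AF below all WT libraries and the others above. mt-Nd2, mt-Nd1 and mt-Nd3 overlapped at -0.24 (SE 0.16), -0.09 (SE 0.13) and 0.17 (SE 0.20). Library 8AF, with as little seminal vesicle RNA as the WT libraries, was the A537T library lowest in mt-Nd1, mt-Nd2, mt-Nd3, mt-Nd6 and mt-Cytb. For mt-Cytb this held in normalized counts only, since as RPM 9AF was lower (1254 against 1328 in 8AF). Without 8AF mt-Nd6 was higher without overlap, against 23.2% of all genes, and limma called 1224 genes, none a member. Without 1AF mt-Nd2 joined the 3 lower members, against 15.3% of all genes lower, and limma called 6 genes. With a seminal vesicle score as covariate mt-Nd3 and mt-Nd6 stood at -0.18 and -0.11, opposite in sign, while mt-Nd5 stayed negative under all alternatives (-0.57 to -0.34).

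**Figure D2:**
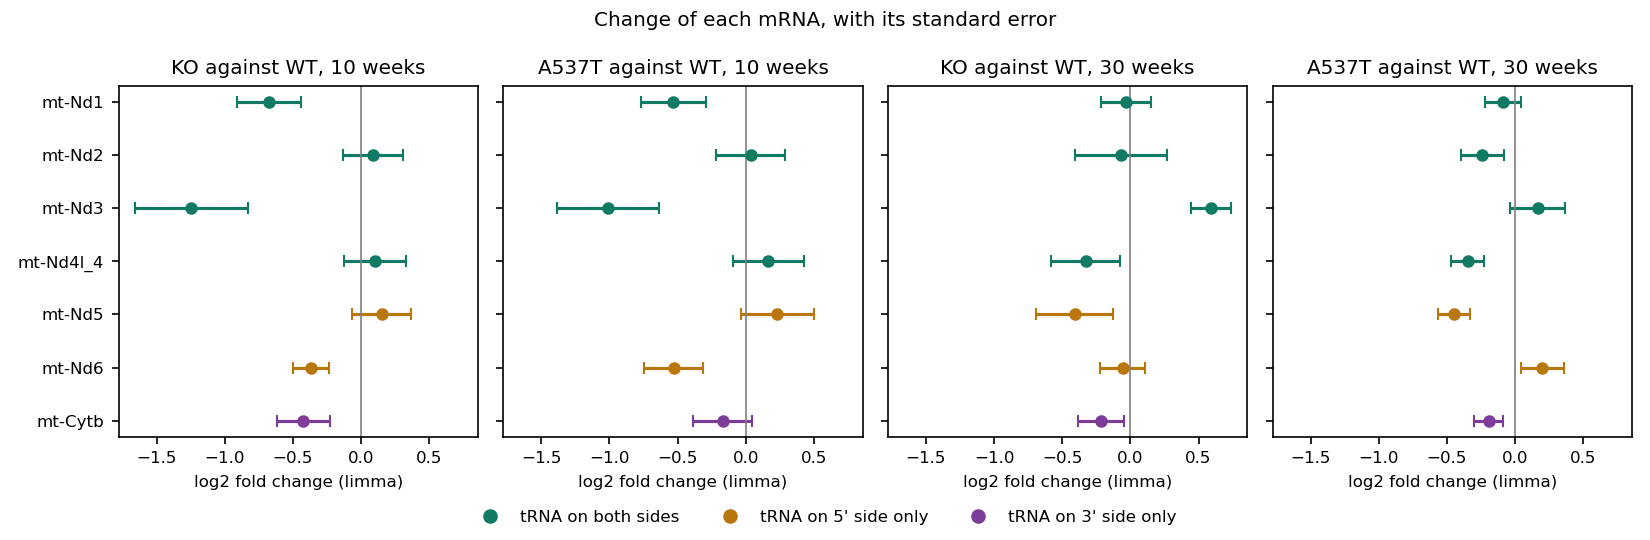
Log2 fold change (limma, horizontal axis) of each of the 7 members against WT of the same age in the 4 comparisons, with bars for the standard error (3 libraries a group) and colours for the side on which a tRNA flanks the mRNA. mt-Nd3 stands at -1.24 and -1.01 at 10 weeks and at 0.59 and 0.17 at 30 weeks, and members of 1 colour spread to both sides of 0 at 10 weeks.

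The change against WT was compared between the ages with an interaction term in limma. For KO 0 of 15016 genes passed (0%), with 1919 at an unadjusted p under 0.05, and for A537T 0 of 15113 (0%), with 1843. mt-Nd3 had the largest difference of the members in both lines. Its change was higher at 30 than at 10 weeks by 1.84 in KO (SE 0.48, adjusted p = 0.245, limma) and by 1.178 in A537T (SE 0.46, adjusted p = 0.340, limma). In A537T mt-Nd6 differed by 0.73 (SE 0.28, adjusted p = 0.337) and mt-Nd5 by -0.68 (adjusted p = 0.376), in opposite directions. mt-Nd1 differed by 0.64 in KO (adjusted p = 0.401) and 0.44 in A537T, and the remaining members by -0.56 to 0.31 in KO and by -0.51 to -0.02 in A537T. The WT libraries differ between the ages in muscle share, so age and muscle share cannot be told apart in the WT level from which these differences are counted. With a muscle score as covariate the difference of mt-Nd3 in KO was 0.96 (adjusted p = 0.900, over alternatives 0.0576 to 0.900). For KO 156 genes were called without 14AF and 12 without 5AF, and for A537T 442 without 8AF and 11 without 10AF, none a member.

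Members with tRNAs in the same position differed among themselves. In KO at 10 weeks the 4 members with a tRNA on both sides had log2 fold changes from -1.24 (mt-Nd3) to 0.10 (mt-Nd4l_4). Their median was -0.29. Between the adjacent mt-Nd3 and mt-Nd4l_4 lies mt-Tr, on the 3′ side of mt-Nd3 and the 5′ side of mt-Nd4l_4. The members with a tRNA on the 5′ side only ranged from -0.37 (mt-Nd6) to 0.15 (mt-Nd5), and mt-Cytb, with 1 on the 3′ side only, stood at -0.42. The row without a flanking tRNA, mt-Co1, a core subunit of complex IV, stood at -1.06, within the range of the members with both. The median over the 7 members was -0.37, against -0.63 over all 11 mitochondrial mRNAs and -0.01 over all genes. In A537T at 10 weeks the members with both ranged from -1.01 to 0.17 (median -0.25), those with a tRNA on the 5′ side only from -0.53 to 0.23, and mt-Co1 stood at -0.51. At 30 weeks the ranges were -0.33 to 0.59 with both and -0.41 to -0.06 with the 5′ side only in KO, and -0.35 to 0.17 and -0.44 to 0.20 in A537T, with mt-Co1 at -0.05 and -0.10. Within each library the mean log2 level per kb of the 4 members with both, minus that of the other 3, was 0.444 to 0.644 in KO and 0.230 to 0.263 in WT at 30 weeks, without overlap. It overlapped between mutant and WT in the other 3 comparisons. Over all 11 mRNAs the same difference overlapped in KO at 30 weeks (-0.666 to -0.378 against -0.680 to -0.562). It was lower without overlap in A537T at 10 weeks (-0.287 to -0.280 against -0.256 to -0.201), the opposite direction to the members in KO at 30 weeks. In KO at 10 weeks and A537T at 30 weeks it overlapped.

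As a share of all mitochondrial mRNA counts the members took 32.0, 25.2 and 20.0% in WT libraries 10AF, 11AF and 12AF at 10 weeks. They took 35.4 to 36.6% in the KO libraries of that age, without overlap, and 26.9 to 33.0% in those of A537T, with overlap. Within that share mt-Nd2, mt-Nd4l_4, mt-Nd5, mt-Nd6 and mt-Cytb were higher in every KO library than in every WT library, for mt-Nd4l_4 at 9.19 to 9.49% against 3.11 to 7.78% and for mt-Nd5 at 5.94 to 6.71% against 1.92 to 5.22%. The complex IV and V rows made up the rest, with mt-Co3 at -1.18 and mt-Co2 at -0.91 on the log2 scale in normalized counts. In this share mt-Co1, mt-Co2 and mt-Co3 were lower in KO without overlap, and the complex V row overlapped. Parts of 1 whole depend on each other, and the share is not defined over all genes. Among the young WT libraries the members' share stood in the opposite order to muscle (4.10, 6.83 and 13.2%). Among the young A537T libraries both orders were the same. The part of muscle RNA in the shift was not tested. In A537T at 10 weeks all 7 members overlapped in this share. At 30 weeks mt-Nd3 was higher in KO (1.76 to 2.00% against 1.09 to 1.43%), mt-Nd6 was higher in A537T (0.713 to 0.935% against 0.647 to 0.6925%), and mt-Nd5 was lower in A537T (3.68 to 4.26% against 4.29 to 5.81% in WT).

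Ratios between members do not depend on the scaling of a library. The ratio of mt-Nd3 to mt-Nd5 per kb was 1.71, 3.38 and 8.30 in WT and 1.34, 1.62 and 1.21 in KO at 10 weeks. The order of the WT libraries was that of their muscle shares. It was 1.20, 1.42 and 2.08 in A537T, overlapping WT, and these 3 libraries had the opposite order, with the highest ratio at the lowest muscle share. At 30 weeks the ratio was 1.75, 0.988 and 1.17 in WT and 1.76, 3.75 and 2.47 in KO, higher by a margin of less than 1% between 4AF and 1AF, and 1.88, 1.55 and 2.47 in A537T, overlapping. The light-strand member was also set against its overlapping neighbour. The ratio of mt-Nd6 to mt-Nd5 per kb was 0.392, 0.529 and 0.747 in WT at 10 weeks, and all 3 KO (0.357 to 0.387) and all 3 A537T libraries (0.306 to 0.334) were below. The margin was narrow in KO, between 13AF (0.387) and WT library 10AF (0.392). The WT libraries again stood in the order of their muscle shares, as did the A537T libraries, while the KO libraries did not. At 30 weeks all 3 A537T libraries (0.589 to 0.816) were above WT (0.399 to 0.568), while KO (0.504 to 0.812) overlapped. Set against the mean of the 6 heavy-strand members on the log2 scale per kb, mt-Nd6 stood at -2.41 to -2.08 in A537T and -2.01 to -1.85 in WT at 10 weeks, and at -1.31 to -0.985 in A537T and -1.65 to -1.335 in WT at 30 weeks. In KO it overlapped WT at both ages. A shift against mt-Nd5 was not particular to mt-Nd6. The ratio of mt-Cytb to mt-Nd5 per kb, both heavy-strand members, was 1.88 to 2.06 in KO against 2.23 to 4.02 in WT at 10 weeks. At 30 weeks it was 2.76 to 2.94 in A537T against 2.21 to 2.66 in WT, again without overlap. In A537T at 10 weeks and KO at 30 weeks this ratio overlapped WT. Of the libraries with little seminal vesicle RNA, 8AF had the lowest mt-Nd6 to mt-Nd5 ratio of A537T at 30 weeks and 5AF the highest of KO.

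**Figure D3:**
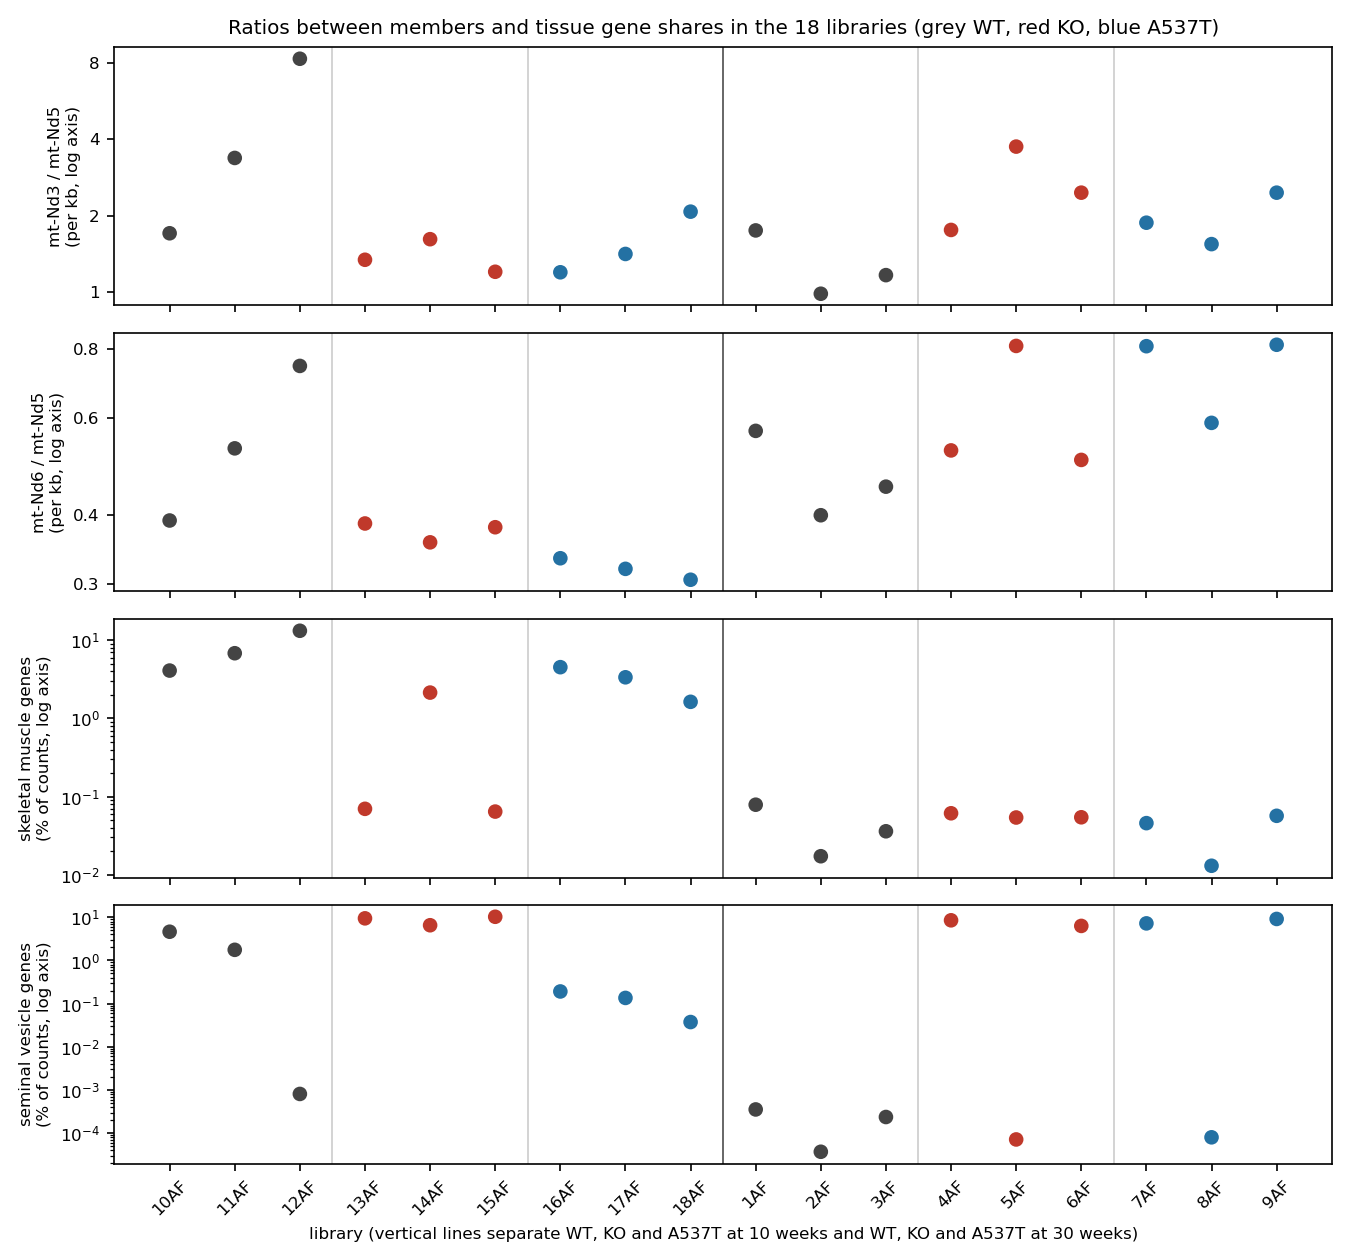
Ratios of mt-Nd3 and of mt-Nd6 to mt-Nd5 (normalized counts per kb, log axes) in the 18 libraries, above the percent of counts on 33 skeletal muscle and 9 seminal vesicle genes (log axes), each point being 1 library. The ratio of mt-Nd3 is highest in WT library 12AF (8.30), which has the most skeletal muscle counts (13.2%). The ratio of mt-Nd6 at 10 weeks is below WT in all 6 mutant libraries, narrowly in KO library 13AF (0.387 against 0.392 in WT library 10AF).

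Across the 18 libraries the members fell into sets that varied together on the scale of log2 RPM. Pearson's r was 0.99 between mt-Nd4l_4 and mt-Nd5, 0.96 between mt-Nd2 and mt-Nd4l_4, and 0.91 between mt-Nd1 and mt-Cytb. mt-Nd3 had r = 0.79 with mt-Nd1 but 0.17 with mt-Nd4l_4 and 0.06 with mt-Nd5, and mt-Nd6 had 0.19 to 0.42 with the others. The libraries share age, litter matching and tissue makeup, so these values are descriptions. Among 2771 nuclear genes with at least 50 RPM, the 5 most like the mean of the heavy-strand members were Ogdh (r = 0.93), Map4 (0.88), Pabpc4 (0.88), Ppp2r5a (0.87) and Cacna2d1 (0.87). Ogdh encodes a subunit of the oxoglutarate dehydrogenase of the TCA cycle. The 5 most like mt-Nd6 were D5Ertd579e (0.70), Gpcpd1 (0.60), Acsl1 (0.59), Rhoq (0.56) and Dync2h1 (0.55), all less alike than those of the heavy-strand mean. The 5 genes most like mt-Nd1 alone, singled out after their values were seen, were Mybpc1 (0.95), Myom1 (0.95), Acta1 (0.94), Flnc (0.94) and Jph2 (0.94), all known from striated muscle.

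In the young mutants the nuclear subunits of the same complexes were all on the lower side, unlike the members. In KO at 10 weeks 37 of 37 nuclear complex I subunits had a negative log2 fold change (median -0.89), against 50.6% of all genes, and 30 of them were lower without overlap, against 14.3%, but 0 passed the test. Of 9 nuclear complex III subunits 9 were negative (median -0.85) and 7 without overlap. Ndufa13 and Ndufb9, accessory subunits, stood at -1.01 (SE 0.27) and -1.11 (SE 0.30). Uqcrc1 and Uqcrc2, the core proteins of complex III, stood at -0.92 and -0.68, and Uqcrh, its hinge protein, at -0.66. In A537T at 10 weeks all 37 and all 9 were negative again (medians -0.54 and -0.45), against 48.5% of all genes. Without overlap were 13 of 37 and 1 of 9, against 6.34%, and the latter is close to that share. At 30 weeks 22 complex I subunits were positive and 15 negative in KO (median 0.04), and 16 and 21 in A537T (median -0.05). The complex III medians were 0.01 and -0.07. The nuclear complex I subunits' share of counts followed the muscle share among the WT libraries at 10 weeks, at 0.136, 0.172 and 0.224% in 10AF, 11AF and 12AF, and was 0.103 to 0.117% in KO. The part of muscle RNA in this was not tested.

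Genes that build the complexes or act on mitochondrial RNA were mostly negative in KO at 10 weeks as well. In KO at 10 weeks 12 of 15 complex I assembly factors were negative (median -0.27), with Acad9 at -0.20, Foxred1 at -0.52 and Tmem186 at 0.02, and 5 of 6 complex III assembly factors (median -0.61), with Uqcc1 at -0.69, Uqcc3 at -0.53 and Uqcc2 at -0.91. Of 8 genes of mitochondrial transcription and RNA end cutting 6 were negative (median -0.24), with Elac2 itself counted among them at -0.31. Hsd17b10, a subunit of mitochondrial RNase P, stood at -0.57 and Tfb2m, a transcription initiation factor, at -0.26. Of 18 genes of mRNA stability and decay 13 were negative (median -0.15), with Lrpprc, which stabilizes mitochondrial mRNAs, at -0.31, Grsf1, an RNA granule protein, at -0.38 and Fastk, which is known to support mt-Nd6 mRNA, at -0.66 (SE 0.16, adjusted p = 0.183, limma). In A537T at 10 weeks the medians of these 4 lists were -0.18, -0.47, -0.10 and -0.22, and Fastk stood at -0.41. At 30 weeks they lay between -0.15 and 0.07 in KO and between -0.06 and 0.03 in A537T. None of these genes passed the test in any comparison.

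**Figure D4:**
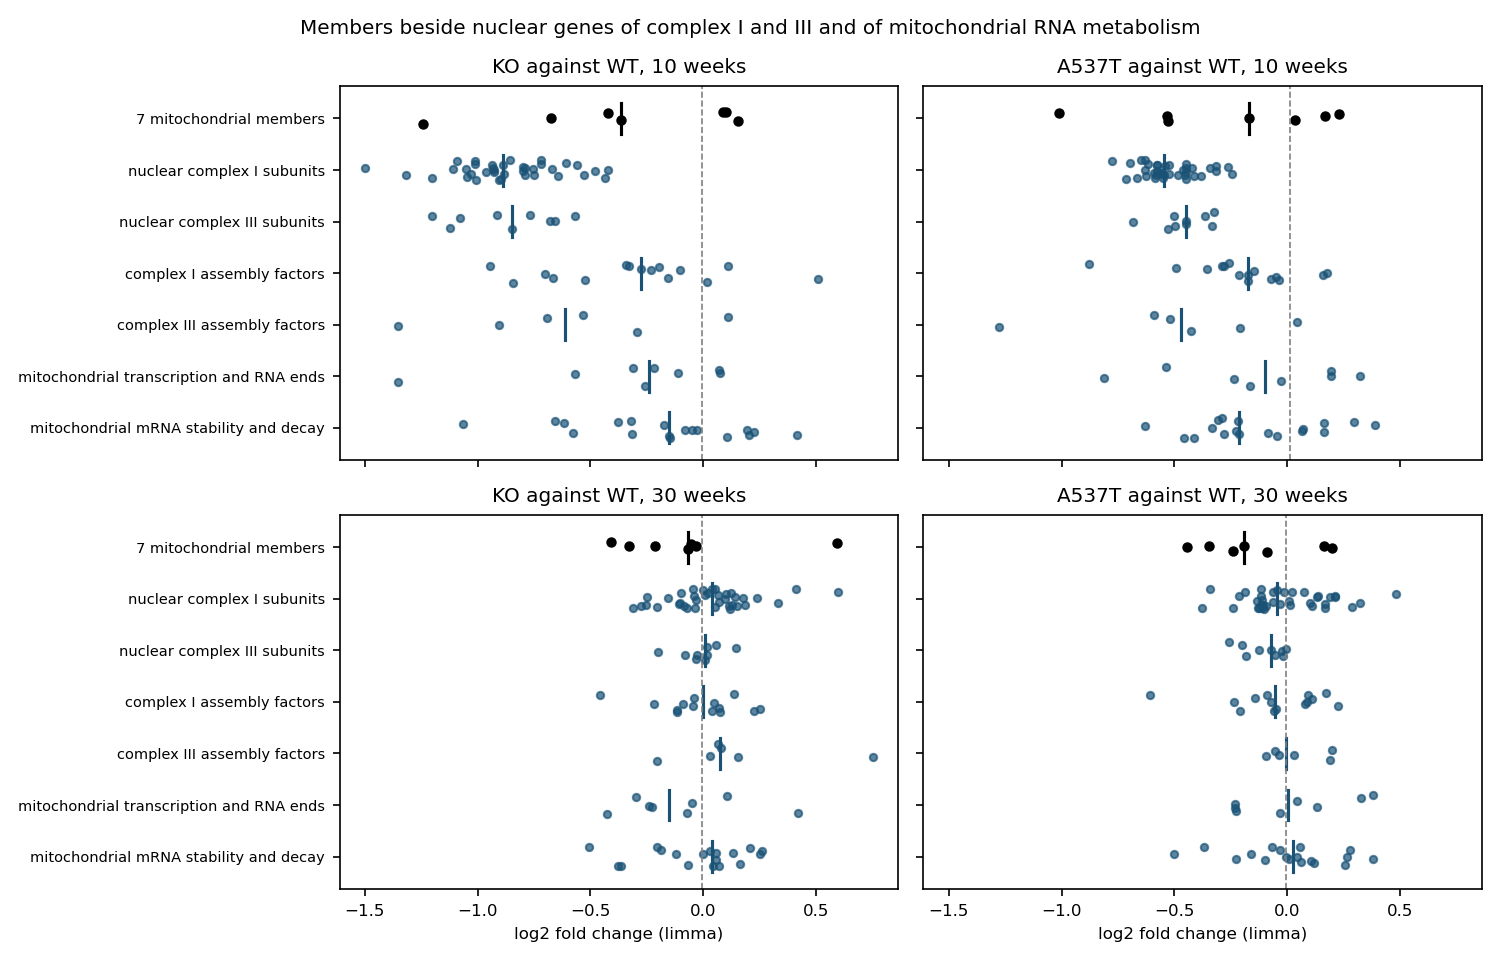
Log2 fold change (limma, horizontal axis) of the 7 members (black) and of the genes of 6 nuclear lists (blue, 1 point a gene) in the 4 comparisons, with a vertical bar at each median and a dashed line at the median of all genes tested. In KO at 10 weeks every nuclear subunit of complexes I and III lies below 0, with medians of -0.89 and -0.85, while the members lie on both sides with a median of -0.37.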

How the data were processed

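TruSeq libraries of total prostate RNA from 18 mice were run on an Illumina NovaSeq instrument. The authors trimmed reads (Trim Galore 0.4.1, cutadapt 1.18), aligned them with STAR 2.7.3a to GRCm38.p6 with nuclear copies of mitochondrial sequence masked, used Salmon to quantify by strand, and read its output through tximport. Each deposited signal value is a gene's count after scaling by the DESeq2 1.26 size factors of its table, of which there are 4 with 6 libraries each. Columns carry library names without replicate numbers. A column in both tables of an age was taken as WT and a column in 1 table as its mutant. Reads were recovered as multiples of the value of 1 read, and at least 99.938% of values were whole within 0.01. In 4 columns the size factor is too close to 1 for this to be checked independently.

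The filter kept genes averaging 10 or more normalized counts, and limma 3.58.1 was fitted to log2(normalized count + 1), using eBayes with a mean trend in R 4.3.3. edgeR 4.0.16 and DESeq2 1.42.0 on recovered reads, pseudocount 8, minimum means of 1 and 100, no filter, no mean trend, other scalings, tissue scores as covariates and leaving out each library were alternatives. The code was tested on simulated data. The p-values measure the spread between single mice. Levels were divided by annotated length, and positions come from GENCODE vM21. Of the gene IDs, 54450 matched the reference exactly and 657 more without version. The members and gene lists were chosen with earlier results of these data known. Named are the members, Elac2, the 3 most abundant genes of the mitochondrial lists, and the 5 genes most like the members. A gene that this rule names is not reported here. mt-Co1, mt-Co2 and mt-Co3 are named as their background, and markers at 0 and single values were named after they were seen.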

Additional observations from a re-analysis of the deposited data

Results flagged for a closer look

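The change of mt-Nd3 in KO against WT differed between the ages by 1.84 on the log2 scale (30 minus 10 weeks). All KO libraries lay below WT at 10 weeks and above WT at 30 weeks, a turn that was not counted over all genes. The KO level was 371 ± 81.7 RPM at 10 weeks and 361 ± 16.7 at 30 weeks, with overlap. The WT level was 796 ± 344 RPM at 10 weeks and 244 ± 52.4 at 30 weeks. The interaction term had an adjusted p of 0.245 (limma), so the difference did not pass the test.

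The same turn appeared in ratios per kb, where every mutant library lay on 1 side of WT at 10 weeks and on the other at 30 weeks. In KO it was 2.40 for mt-Nd3 to mt-Nd5 and 2.27 for mt-Nd3 to mt-Nd4l_4. In A537T it was 1.41 for mt-Nd6 to mt-Nd5 and 0.71 for mt-Nd6 against the mean of the heavy-strand members. At 30 weeks both KO ratios cleared WT narrowly, between 4AF and 1AF (1.761 against 1.753, and 1.172 against 1.167). The turns were picked from all members, ratios and class differences looked at in both lines. These differences in the ratios were not tested. The WT libraries at 10 weeks carried 4.10 to 13.2% skeletal muscle counts and those at 30 weeks at most 0.0786%, and the part of this in the turns was not tested.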

How the results depend on the processing

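Of 700 values of the members' 42 changes under alternatives, 662 kept their direction and their side of the threshold, 5 kept the direction and passed the threshold, and 33 turned the direction, in 14 of the changes. In KO at 10 weeks a seminal vesicle covariate gave -0.060 for mt-Nd2, -0.072 for mt-Nd4l_4 and -0.075 for mt-Nd5, and leaving out a library gave -0.064 to 0.24, -0.031 to 0.24 and -0.013 to 0.31. In A537T at 10 weeks mt-Nd2 ranged from -0.11 to 0.26 with a library left out, and mt-Cytb was 0.10 with a muscle covariate. In KO at 30 weeks scaling to the same total without tissue and mitochondrial genes gave 0.029 for mt-Nd1 and 0.0075 for mt-Nd6, DESeq2 0.0049 for mt-Nd1 and 0.027 for mt-Nd2, and edgeR 0.021 for mt-Nd2, while leaving out a library gave -0.20 to 0.16 for mt-Nd1, -0.37 to 0.31 for mt-Nd2 and -0.23 to 0.037 for mt-Nd6. In A537T at 30 weeks mt-Nd1 was 0.021 under that scaling and -0.15 to 0.032 with a library left out, and the seminal vesicle covariate gave -0.18 for mt-Nd3 and -0.11 for mt-Nd6. Between ages mt-Nd2 ranged from -0.46 to 0.22 in KO and mt-Cytb from -0.16 to 0.068 in A537T with a library left out, and mt-Cytb was -0.011 in KO at the same total. That scaling moved the median of all genes to -0.18 in KO and -0.11 in A537T between ages, and the scaling without tissue genes to 0.17 in KO at 10 weeks and 0.10 in A537T at 30 weeks. The cause was not tested. Genes called by limma, 0 as reported, were 1 (KO) and 2 (A537T) at 10 weeks without a mean trend, 2 in A537T at 10 weeks with a minimum mean of 1 or no filter, and 1 and 3 with a seminal vesicle covariate in A537T at 10 and 30 weeks. With a library left out they ranged from 0 to 2886 (KO) and 0 to 50 (A537T) at 10 weeks, 0 to 944 and 0 to 1224 at 30 weeks, and 0 to 156 and 0 to 442 between ages. Beside the libraries named with their counts in the report, leaving out 11AF or 12AF (A537T) or 1AF (KO) gave 1 to 2 within an age, and 15AF, 1AF or 2AF (KO) or 16AF or 2AF (A537T) gave 1 to 3 between ages. DESeq2 called 714, 90, 280 and 478, edgeR 0. Counts of members without overlap were added after seeing the data. No paired analysis was possible because the columns carry no replicate numbers. Every member had at least 784 normalized counts in every library, and how depth or the number of libraries bears on the calls was not tested.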
